A study of Mus musculus with 46 samples.

Results

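The genotype by DHT interaction is the change of a transcript with dihydrotestosterone (DHT) in *Actn3* KO mice minus its change in WT mice. It was measured for every gene of the spinalis, a muscle of the back, in female mice. The libraries were the 22 spinalis samples among the 46 samples of the series, and all 16987 genes of their count table were tested. The study asked whether muscle without α-actinin-3 answers an androgen differently.

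All mice of these groups were females of the strain C57BL6 (C57BL/6J in the methods of the study), either WT or *Actn3* KO. At 4 to 5 weeks of age each received 1 cm of silastic tubing under the skin between the shoulder blades, and the muscle was taken 6 weeks later. The tubing was empty in the WT-empty and KO-empty mice and held 10 mg of DHT in the WT-DHT and KO-DHT mice. Every mouse, controls included, had buprenorphine before the operation and isoflurane with oxygen during it. There were 6 mice each in WT-DHT and KO-DHT and 5 each in WT-empty and KO-empty, and each library is named by the mouse number in its column header. No removal of the ovaries is described in the sources used here.

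DHT is a potent natural androgen. In skeletal muscle, androgens change the transcription of many genes, among them genes of polyamine synthesis, and increase muscle mass. The protein α-actinin-3 crosslinks actin filaments at the Z-disc of fast fibres, and it also binds enzymes of metabolism and regulators of calcium signalling.

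*Actn3* (ENSMUSG00000006457) was examined first, since it checks the genotype of each library. Its level was 13.23, 13.26, 13.28, 13.07 and 13.34 log2 CPM (counts scaled to a common library total) in the WT-empty mice and 12.59 to 12.91 (median 12.83) in the WT-DHT mice. It was 6.08, 6.38, 6.29, 5.82 and 5.96 in the KO-empty mice and 5.94 to 6.28 (median 6.06) in the KO-DHT mice. Every KO library lay far below every WT library, so the genotype in all 22 labels matched. The interaction of *Actn3* itself was 0.41 on the log2 scale (SE 0.13, q = 0.0850). Here and below, q stands for a Benjamini-Hochberg adjusted p over the whole table, from the quasi-likelihood test of edgeR. The threshold was 0.05 for the interaction and 0.01 for a response to DHT within a genotype or a difference between genotypes. *Actn3* was therefore not called, although library-size scaling, DESeq2 and leaving out KO-empty mouse 33KR each put it past the threshold.

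The labelled tissue was checked by 7 markers of muscle fibres, *Ckm*, *Acta1*, *Ttn*, *Myh4*, *Myh1*, *Des* and *Tnnt3*. All 7 were measured, and together they held between 196680 and 303400 CPM in each library, with *Ttn* the most abundant. None of the 7 had a called interaction by edgeR, DESeq2 or limma-voom, and 0 had an unadjusted p under 0.05. Total counts per library, in megacounts (M), had a median of 47.0 M in WT-empty (37.3 to 51.2), 52.0 M in WT-DHT (34.8 to 53.9), 44.1 M in KO-empty (42.5 to 47.8) and 44.2 M in KO-DHT (34.9 to 51.7).

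Libraries that stood apart were sought with markers of other cell types. Neutrophil markers, whose products are made by granulocytes of the blood, were high in 2 of the 5 KO-empty mice. The summed level of *S100a8*, *S100a9* and *Csf3r* was 99.1 CPM in KO-empty mouse 61KR and 41.2 CPM in mouse 17KR, against 1.77, 1.74 and 3.74 in the others of that group. In the WT-empty mice it was 1.19, 0.454, 0.346, 0.477 and 0.360 CPM. It ranged from 1.17 to 17.7 (median 3.51) in the WT-DHT mice and from 1.48 to 5.48 (median 1.91) in the KO-DHT mice. *S100a9* was the most abundant, and the markers *Retnlg* and *Mmp8* are not among the genes tested. Mouse 61KR was also highest for red blood cell markers (704 CPM), lymphocyte markers (47.1 CPM) and macrophage markers (229 CPM) among all 22 mice. KO-DHT mouse 63KR was highest for brown adipocyte markers, at 594 CPM against at most 425 in any other mouse. Most abundant in this sum was *Cox8b*, with 8181 to 16675 counts per library. *Ucp1* had 7072 counts in mouse 63KR and 4 to 67 in the other KO-DHT mice. The highest *Ucp1* count in the other groups was 1812 (WT-empty mouse 49KR), 1545 (WT-DHT mouse 15KR) and 1644 (KO-empty mouse 64KR). In bulk muscle, fewer cells of a type and less RNA per cell cannot be told apart. The results that rest on these libraries are given with and without them, and KO-empty mice 17KR and 61KR are left out together as a choice made after the values were seen.

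**Figure D1:**
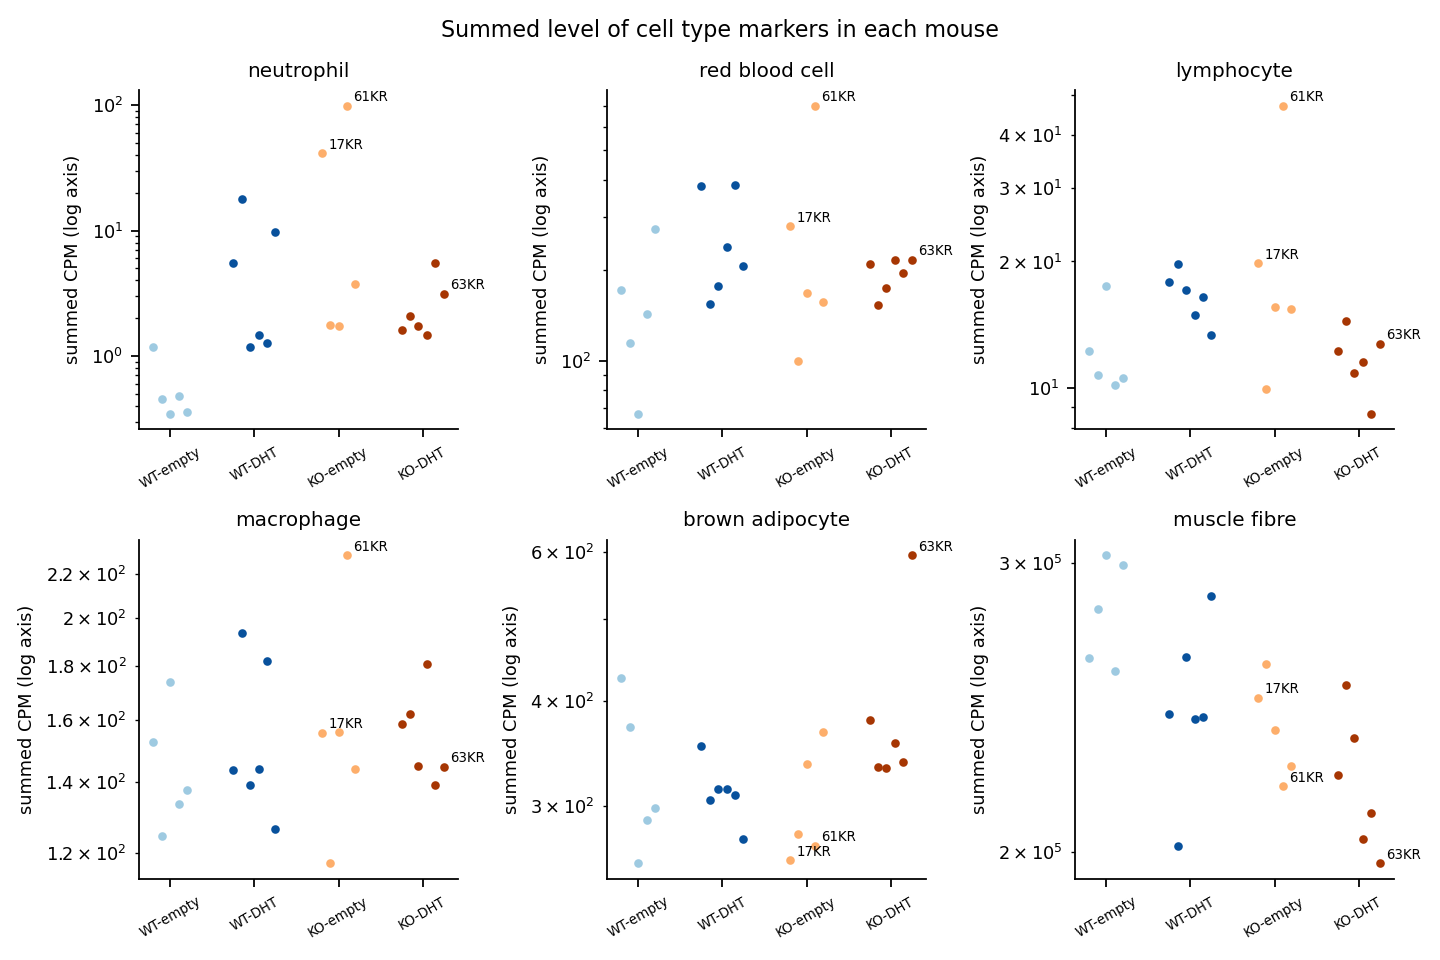
Each point is the summed CPM of the measured markers of a cell type in one mouse, on a log axis, for the 4 groups of spinalis libraries. KO-empty mice 61KR and 17KR lie above the others of their group for neutrophil markers (99.1 and 41.2 CPM), and KO-DHT mouse 63KR lies highest for brown adipocyte markers (594 CPM).

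With all mice and edgeR, the most frequent pattern was a response to DHT that was present in WT and small in KO muscle. An interaction was called for 550 genes, 3.24% of those tested. It was positive for 228 genes (1.34%) and negative for 322 (1.90%). A positive value means that the level with DHT relative to empty tubing was higher in KO than in WT, and a negative value that it was lower. At q ≤ 0.01 there were 273 genes, and 2564 had an unadjusted p under 0.05. The gene just inside the threshold was *D230025D16Rik* (0.54, q = 0.0498) and the gene just outside was *Hfe* (0.47, q = 0.0505).

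Of the 550 genes, 292 had changes of the same sign in both genotypes, smaller in KO. For 189 of them the WT level was higher with DHT, with a median log2 change of 1.20 in WT and 0.33 in KO. For the other 103 it was lower, with a median of −0.98 in WT and −0.25 in KO. A larger change of the same sign in KO was seen for 7 genes, and the changes had opposite signs for 251, of which 142 had a called response in WT alone, 27 in KO alone, 2 in both and 80 in neither. Most of the opposite changes were small, with medians of 0.53 in WT and −0.25 in KO for the 130 genes with higher WT levels, and −0.36 and 0.17 for the 121 with lower levels. Over all genes tested, the median change was −0.01 in WT and −0.01 in KO. The order of the classes was not fixed. By DESeq2, 377 genes had changes of opposite sign, and the class with a smaller change in KO held at most 376 in any alternative. Without 1 library, the opposite class held up to 348 genes, and the class with a smaller change in KO at most 302. At q ≤ 0.01, 169 were smaller in KO and 100 opposite.

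The responses within each genotype were tested in the same fit and share their mice with the interaction, so they serve only to sort its genes. With DHT, 6.63% of all genes were called higher and 4.64% lower in WT, against 2.86% and 1.75% in KO. Among the 550 interaction genes, 336 had a called response in WT alone, 104 in both genotypes, 30 in KO alone and 80 in neither. For the 189 genes with higher WT levels and a smaller change in KO, the median difference between KO and WT was 0.01 with empty tubing and −0.78 with DHT. For the 103 with lower WT levels and a smaller change in KO, it was −0.19 with empty tubing and 0.55 with DHT.

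The number of interaction genes depended on the libraries used. Without 1 library it lay between 430 (without KO-empty mouse 17KR) and 658 (without KO-empty mouse 62KR). Without KO-empty mouse 61KR, 480 genes were called, 447 of them among the 550. Among the other fits without 1 library, the count was 434 without WT-DHT mouse 8KR and 446 without WT-DHT mouse 34KR. Why these counts differ was not tested. Without mice 17KR and 61KR together, 329 were called (119 positive and 210 negative), 318 of them among the 550. The opposite class then held 123 genes and the class with a larger change in KO held 4, and the genes called for a response in KO fell in number from 784 to 368. Leaving out 2 of 5 mice also lowers the power of the test, and no other 2 mice were left out together for comparison. With library-size scaling in place of TMM, positive genes made up 55.1% of the calls (284 of 515), against 41.5% (228 of 550) with TMM.

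**Figure D2:**
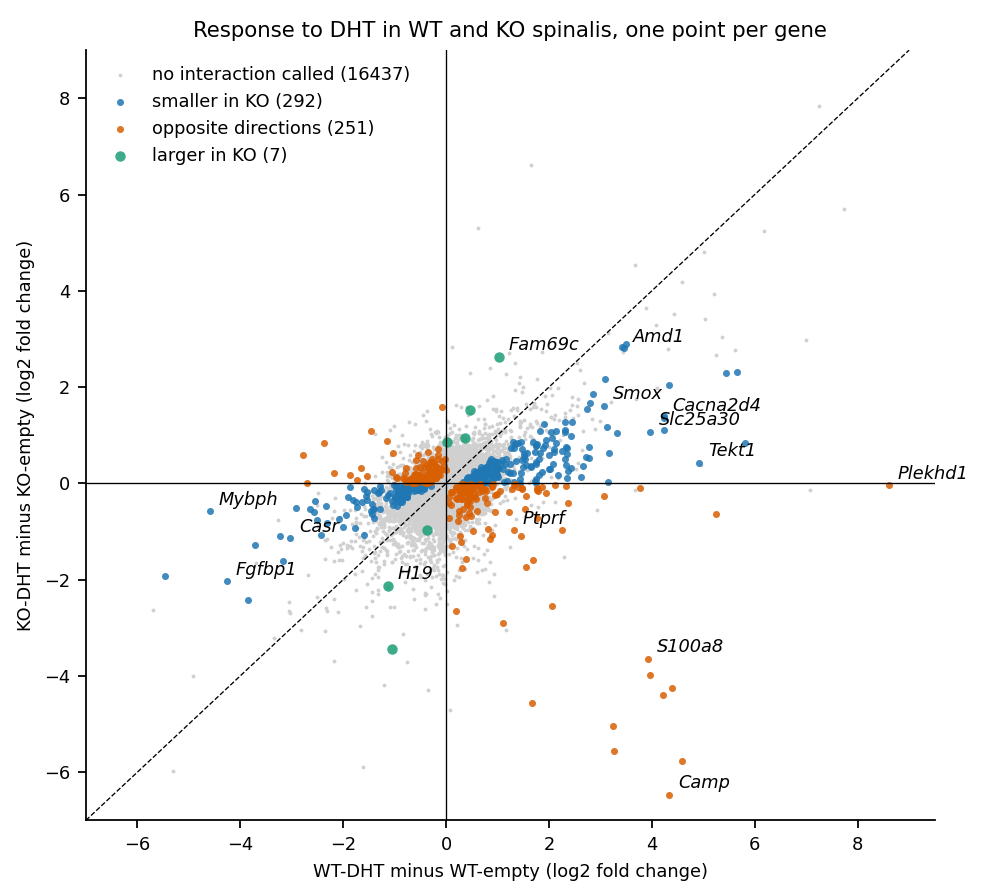
Each point is a gene, with its log2 fold change of WT-DHT over WT-empty on the horizontal axis and of KO-DHT over KO-empty on the vertical axis. Blue points are the 292 genes with a smaller change in KO, orange the 251 with changes of opposite sign, green the 7 with a larger change of the same sign in KO and grey the genes without a called interaction, and the dashed line marks equal changes.

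Among genes with a positive interaction, the 8 with the smallest p were *Mybph*, *Gstm2*, *Casr*, *Ivd*, *Gm6665*, *Aldh6a1*, *Gstk1* and *Gm48630*. All 8 fell with DHT in WT muscle, and 224 of all 228 positive genes had a WT change of that sign. *Mybph* (ENSMUSG00000042451), which encodes a myosin-binding protein of the thick filament, fell steeply with DHT in WT muscle, with a far smaller change in KO muscle. Its level was 7.97, 7.83, 7.68, 7.91 and 7.73 log2 CPM in the WT-empty mice and 2.24 to 3.93 (median 3.36) in the WT-DHT mice. In the KO-empty mice it was 8.05, 8.49, 8.25, 7.90 and 8.46, and in the KO-DHT mice 7.51 to 7.79 (median 7.68). All 6 WT-DHT mice lay far below every other mouse, whereas the KO-DHT mice lay within or just below the range of the WT-empty mice and below every KO-empty mouse. The log2 change was −4.59 in WT (q = 2.25e-14) and −0.58 in KO (q = 0.0375), an interaction of 4.01 (SE 0.27, q = 2.21e-09). Exons of *Mybph* and *Adora1*, which encodes an adenosine receptor, overlap by 1162 bases on opposite strands. The overlap covers 49.9% of the exon bases of *Mybph* and 20.1% of those of *Adora1*, whose interaction was 2.10 (SE 0.30, q = 0.000121). Whether the counting separated the strands is not stated in the sources used here, so the values of this pair are uncertain to that extent.

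*Gstm2* (ENSMUSG00000040562), a glutathione transferase of the mu class, fell in both genotypes and by less in KO. Its level was 5.92, 5.73, 5.61, 5.52 and 5.51 log2 CPM in WT-empty and 2.91 to 3.45 (median 3.15) in WT-DHT mice. It was 5.32, 5.61, 5.41, 5.34 and 5.59 in KO-empty and 4.52 to 4.93 (median 4.68) in KO-DHT mice. The DHT mice lay below the empty mice in each genotype, and the KO-DHT mice lay between both WT groups without touching either. The change was −2.51 in WT (q = 2.51e-15) and −0.75 in KO (q = 6.26e-06), with an interaction of 1.76 (SE 0.13, q = 1.28e-08). *Gstk1*, another glutathione transferase, had an interaction of 0.89 (SE 0.11, q = 2.49e-05).

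*Casr* (ENSMUSG00000051980) encodes the calcium-sensing receptor, a G protein-coupled receptor for extracellular calcium. WT-empty mice had levels of 4.75, 4.89, 4.71, 4.95 and 4.81 log2 CPM, and WT-DHT mice 1.63 to 1.99 (median 1.80). KO-empty mice had 3.63, 3.45, 3.01, 3.90 and 3.85, and KO-DHT mice 2.27 to 2.60 (median 2.49). The 4 groups did not overlap, and the genotypes changed order, with KO below WT on empty tubing and above WT on DHT. The fall was −3.03 in WT (q = 6.18e-15) and −1.14 in KO (q = 5.36e-07), an interaction of 1.88 (SE 0.17, q = 1.21e-07).

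*Ivd* (ENSMUSG00000027332) encodes isovaleryl-CoA dehydrogenase, an enzyme of leucine breakdown in mitochondria. Its level was 7.10, 7.02, 6.93, 7.04 and 6.97 log2 CPM in WT-empty and 5.72 to 6.04 (median 5.87) in WT-DHT mice, against 7.08, 7.27, 7.24, 6.98 and 7.35 in KO-empty and 6.87 to 7.05 (median 6.96) in KO-DHT mice. The WT-DHT mice lay below all others, and both KO groups overlapped. *Ivd* fell by 1.13 in WT (q = 5.23e-12), with a change of −0.24 in KO (q = 0.0229), an interaction of 0.89 (SE 0.09, q = 1.8e-06). Without KO-empty mice 17KR and 61KR, the KO response was called (−0.33, q = 0.00428) and the interaction was 0.80. *Aldh6a1*, an enzyme of valine breakdown, had an interaction of 0.77 (SE 0.09, q = 1.49e-05), with −0.90 in WT and −0.13 in KO. An opposite-strand gene, *Bbof1*, overlaps 18.6% of the exon bases of *Aldh6a1*. The values were 1.97 for *Gm6665* and 1.80 for *Gm48630*, which have no assigned function here.

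Among genes with a negative interaction, the 8 with the smallest p were *Saraf*, *Cacna2d4*, *Tekt1*, *St3gal1*, *Slc25a30*, *Ntmt1*, *Anxa7* and *Zfat*. All 8 rose with DHT in WT muscle, and 319 of all 322 negative genes had a WT change of that sign. *Saraf* (ENSMUSG00000031532) encodes a membrane protein that turns off the entry of calcium after the stores are refilled. Levels were 7.10, 7.49, 7.24, 7.23 and 7.15 log2 CPM in the WT-empty mice and 8.75 to 9.28 (median 8.96) in the WT-DHT mice. They were 7.29, 7.34, 7.28, 7.37 and 7.40 in the KO-empty mice and 7.28 to 7.53 (median 7.46) in the KO-DHT mice. Only the WT-DHT mice stood apart, since the other 3 groups overlapped. *Saraf* rose by 1.75 in WT (q = 5.14e-13), its change in KO was 0.10 (q = 0.523), and the interaction was −1.65 (SE 0.12, q = 1.28e-08).

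*Cacna2d4* (ENSMUSG00000041460), an auxiliary subunit of voltage-gated calcium channels, was scarce without DHT. It stood at 0.20, 0.64, 0.56, 0.77 and 0.11 log2 CPM in WT-empty and 4.21 to 5.06 (median 4.63) in WT-DHT mice. In KO it stood at 0.68, 0.27, 0.67, 0.26 and 0.00 with empty tubing and 1.43 to 1.86 (median 1.76) with DHT. Both empty groups overlapped, the KO-DHT mice lay above them and the WT-DHT mice lay higher still. The rise was 4.23 in WT (q = 2.52e-15) and 1.36 in KO (q = 3.16e-06), an interaction of −2.87 (SE 0.22, q = 1.51e-08).

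*Tekt1* (ENSMUSG00000020799) encodes a tektin, a filament protein of ciliary and flagellar microtubules. It was at 0.09, 0.14, −0.06, 0.63 and −0.39 log2 CPM in the WT-empty mice and 4.55 to 5.35 (median 5.00) in the WT-DHT mice, and at −0.74, 0.42, 0.22, −0.96 and −0.25 in the KO-empty and −0.36 to 0.57 (median 0.41) in the KO-DHT mice. Counts per library were 974 to 2083 in the WT-DHT mice and at most 79 in any other mouse. The 3 low groups overlapped. *Tekt1* rose by 4.92 in WT (q = 2.17e-13), its change in KO was 0.43 (q = 0.330), and its interaction was −4.49 (SE 0.35, q = 1.54e-08).

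The other 5 showed the same absence or reduction of the rise. The interaction was −1.94 for *St3gal1*, a sialyltransferase, whose change was 1.86 in WT and −0.08 in KO. *Slc25a30*, a mitochondrial carrier, rose in both genotypes, by 3.96 in WT and 1.07 in KO. *Ntmt1*, a methyltransferase of protein N termini, rose by 2.34 and 0.73, and *Anxa7*, an annexin that binds calcium and membranes, by 1.52 and 0.54. The change of *Zfat*, a zinc finger gene, was 2.34 in WT and −0.06 in KO. The q of these 5 interactions lay between 2.56e-08 and 1.09e-07.

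**Figure D3:**
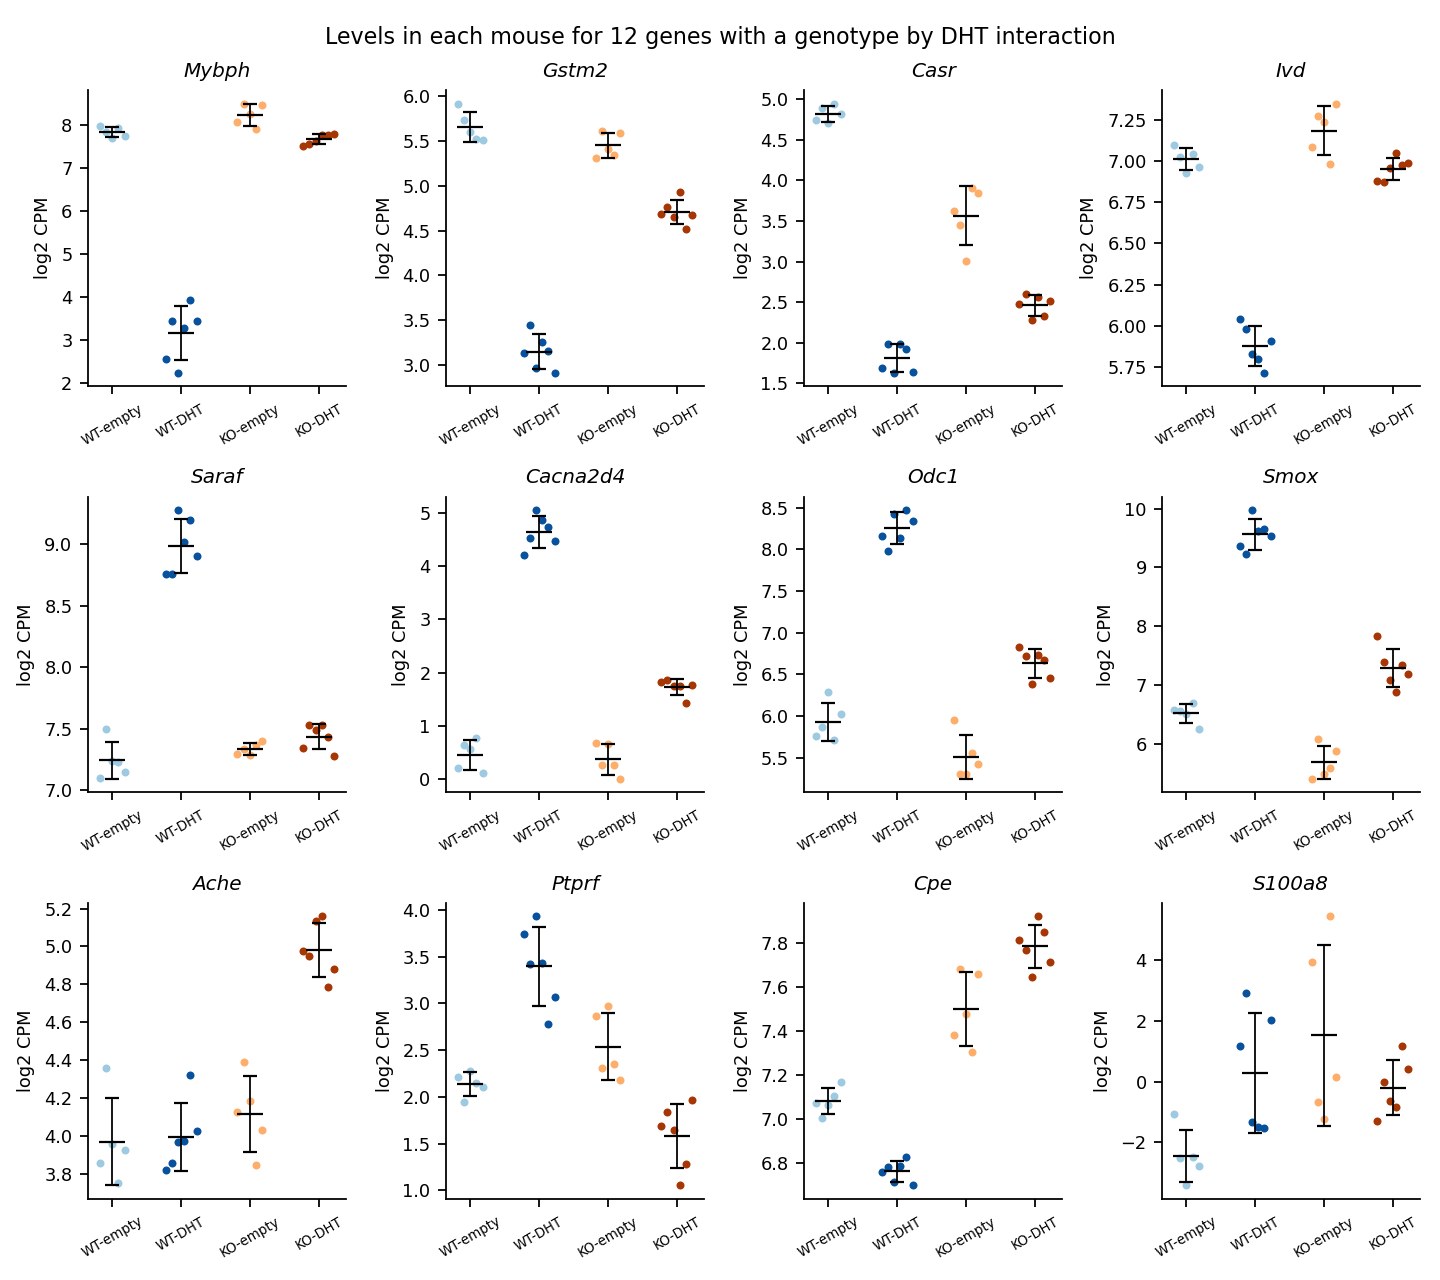
Each point is the log2 CPM of a gene in one mouse, with the group mean as a long line and 1 SD on each side as error bars (n = 5, 6, 5 and 6). In WT, DHT lowered *Mybph*, *Gstm2*, *Casr* and *Ivd* and raised *Saraf*, *Cacna2d4*, *Odc1* and *Smox*, with smaller changes in KO, whereas *Ache* rose in KO alone.

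For 7 genes the change with DHT had the same sign in both genotypes and was larger in KO. Of these, the 4 with the smallest p were *Sel1l3*, *Ache*, *Fam69c* and *H19*. *Ache* (ENSMUSG00000023328) encodes acetylcholinesterase, which ends the signal at the synapse of nerve and muscle. Its level was 3.85, 4.36, 3.96, 3.75 and 3.93 log2 CPM in WT-empty, 3.82 to 4.32 (median 3.97) in WT-DHT, 4.12, 4.39, 4.18, 3.84 and 4.03 in KO-empty and 4.78 to 5.16 (median 4.96) in KO-DHT mice. All 6 KO-DHT mice lay above every other mouse, and the other 3 groups overlapped. The change was 0.02 in WT (q = 0.948) and 0.86 in KO (q = 8.38e-06), an interaction of 0.85 (SE 0.15, q = 0.00154). *Fam69c* rose by 1.04 in WT and 2.62 in KO, with an interaction of 1.59 (SE 0.30, q = 0.00239). *H19*, an imprinted RNA without a protein product, fell by 1.12 in WT and 2.13 in KO, with −1.01 (SE 0.21, q = 0.00578). *Sel1l3* fell by 0.36 and 0.96, with −0.60 (SE 0.11, q = 0.00137). The size of this class depended on single KO-empty libraries, with 13 genes without mouse 33KR, 11 without mouse 64KR and 17 without mouse 62KR.

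Responses called in both genotypes with opposite signs were found for 2 genes, *Ptprf* and *Cpe*. *Ptprf* (ENSMUSG00000033295), a receptor tyrosine phosphatase, rose in WT and fell in KO. It stood at 2.21, 1.95, 2.28, 2.15 and 2.11 log2 CPM in WT-empty and 2.78 to 3.93 (median 3.43) in WT-DHT mice. It stood at 2.87, 2.31, 2.97, 2.35 and 2.18 in KO-empty and 1.05 to 1.97 (median 1.67) in KO-DHT mice. Within each genotype the DHT and empty mice did not overlap, and with empty tubing the genotypes overlapped. The change was 1.32 in WT (q = 1.53e-05) and −0.97 in KO (q = 0.00173), an interaction of −2.29 (SE 0.27, q = 9.63e-06). *Cpe* (ENSMUSG00000037852), a carboxypeptidase that trims peptide precursors, moved the other way. Its level was 7.07, 7.00, 7.06, 7.10 and 7.17 in WT-empty, 6.70 to 6.83 (median 6.77) in WT-DHT, 7.38, 7.68, 7.48, 7.30 and 7.66 in KO-empty and 7.65 to 7.92 (median 7.79) in KO-DHT mice. Both WT groups were apart, with DHT lower, and the KO groups overlapped slightly, with DHT higher. It fell by 0.32 in WT (q = 0.000813) and rose by 0.28 in KO (q = 0.00695), an interaction of 0.60 (SE 0.09, q = 0.000234). Without KO-empty mice 17KR and 61KR, the interaction stayed called for *Ptprf* (−2.25) and *Cpe* (0.50), and the KO response passed for neither (q = 0.0128 and 0.139).

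Strong interactions, with q ≤ 0.01 and an absolute log2 value of at least 2, were found for 43 genes (0.253% of those tested), 11 positive and 32 negative. The largest positive values were 4.01 for *Mybph*, 3.37 for *Srrm4os* and 3.20 for *Gm12199*. The other positive genes were *Gm11752*, *Actc1*, *Gm48584*, *Fgfbp1*, *Gm3896*, *Rasd2*, *Adora1* and *Gm830*. The largest negative values belonged to *Camp* (−10.81), *Ltf* (−10.34) and *Ngp* (−8.83), which encode proteins of neutrophil granules. They were followed by *Plekhd1*, *S100a9*, *S100a8*, *Slc4a1*, *Ighg2c*, *Lcn2* and *Tekt1*. The remaining negative genes were *Pde6a*, *Sh2d6*, *1700001O22Rik*, *Neto2*, *Slc2a3*, *Slc25a30*, *Cacna2d4*, *Cd27*, *Spag4*, *Abcg4*, *Spns3*, *Zfat*, *Ptprf*, *Mtus2*, *Tph1*, *Gm35048*, *Il1r1*, *Gm45262*, *Slc24a2*, *Mss51*, *Tmem100* and *Nwd1*. With DHT, the level of the glucose transporter *Slc2a3* rose by 3.14 in WT and its change was 0.02 in KO. Without KO-empty mice 17KR and 61KR that change was 0.79 (q = 0.0486), and the interaction went from −3.12 to −2.36. With all mice, the interleukin receptor gene *Il1r1* had WT and KO changes of 2.35 and 0.12, and *Mss51*, a gene of muscle mitochondria, 2.11 and −0.03, the latter 0.41 without mice 17KR and 61KR (q = 0.576). Several strong genes had few reads, and *Camp*, *Ltf*, *Ngp*, *Ighg2c* and *Plekhd1* had libraries with 0 counts, so that their fitted values depend on the model's treatment of zeros. The call of *Plekhd1* ended without KO-empty mouse 62KR (−4.85, q = 0.973), after which all KO-empty libraries held 0 counts. By limma-voom the interactions of *Camp*, *Ltf*, *Ngp*, *S100a8*, *S100a9*, *Slc4a1*, *Lcn2* and *Tph1* were not called at q ≤ 0.05. With at least 10 counts required in every library, 18 genes were strong.

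Genes of neutrophils and blood moved with the libraries described above. *S100a8* (ENSMUSG00000056054), a calcium-binding protein of neutrophils, stood at −1.07, −2.53, −3.43, −2.50 and −2.80 log2 CPM in WT-empty and −1.52 to 2.91 (median −0.09) in WT-DHT mice. It stood at 3.96, −0.67, −1.24, 5.46 and 0.16 in KO-empty and −1.29 to 1.17 (median −0.32) in KO-DHT mice. KO-empty mice 61KR and 17KR were the highest of all 22, WT-DHT mice 5KR and 50KR came next, 4 of the 5 WT-empty mice were the lowest, and the ranges of all 4 groups overlapped. The interaction was −7.57 (SE 1.59, q = 0.00620) with all mice. Without KO-empty mice 17KR and 61KR it was −3.37 (q = 0.190). *Camp* (−6.05, q = 0.104), *Ltf* (−3.90, q = 0.436), *Ngp* (−3.54, q = 0.320), *Lcn2* (−1.71, q = 0.232) and the red cell anion exchanger *Slc4a1* (q = 0.0918) were likewise not called without them, while *S100a9* stayed just inside (−4.08, q = 0.0499). *Csf3r*, the receptor for the granulocyte growth factor, had −2.54 (SE 0.71, q = 0.0463) with all mice and was not called without both (−1.55, q = 0.331). Its call also ended with library-size scaling (q = 0.0524) and in 16 of the 22 fits without 1 library. The 3 neutrophil markers were called by edgeR and DESeq2, and limma-voom called 0 of them. Their median interaction was −7.57 with all mice and −3.37 without both. The part of these cells in the other results was not tested. In all, 27 genes were strong without mice 17KR and 61KR. Of the 43, 24 stayed strong and 33 kept a q of at most 0.05.

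Markers of the other cell types had few called genes. Of the 3 lymphocyte markers among the genes tested, *Cd27* was called (−2.84), with 4.24 in WT and 1.40 in KO, while *Cd3e* and *Ptprc* were not, and *Cd3g*, *Ms4a1* and *Cd79a* are not among the genes tested. The summed lymphocyte markers were 12.3, 10.7, 17.5, 10.2 and 10.5 CPM in WT-empty, 13.3 to 19.7 in WT-DHT and 8.67 to 14.4 in KO-DHT mice, with *Ptprc* most abundant. KO-empty mice held 19.8, 9.95, 15.6, 47.1 and 15.4 CPM. None of 5 red blood cell markers was called (median −1.27, and −0.29 without mice 17KR and 61KR), with *Hbb-bs* most abundant. Nor was any of 7 macrophage (−0.18, and 0.02 without mouse 61KR), 8 white adipocyte (0.41, and 0.18 to 0.66 without 1 library), 7 fibroblast (0.04), 6 endothelial (−0.07), 6 smooth muscle and pericyte (0.08), 5 satellite cell (−0.07), 6 Schwann cell (0.14) or 5 tenocyte markers (−0.88). The 7 brown adipocyte markers had a median of 1.32, which turned to −1.18 without KO-DHT mouse 63KR, and none was called. By DESeq2 and limma-voom 0 were called in each list without a call by edgeR as well. An unadjusted p under 0.05 was found for 4 red blood cell markers, for 2 each of the lymphocyte, brown adipocyte, fibroblast, satellite cell and tenocyte markers, and for 0 of the macrophage, white adipocyte, endothelial, smooth muscle and pericyte or Schwann cell markers.

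Polyamines are small cations made from ornithine and S-adenosylmethionine that bind nucleic acids and are needed for growth. Of 12 genes of polyamine metabolism, 5 had a called negative interaction and 0 a positive one, against 1.90% negative and 1.34% positive over all genes. The 5 include the near-identical copies *Amd1* and *Amd2*, so they are not 5 independent measurements. The median interaction was −0.39, against −0.01 over all genes, with median changes of 0.36 in WT and 0.17 in KO. *Odc1* (ENSMUSG00000011179), the rate-limiting ornithine decarboxylase, rose in both genotypes and by less in KO. Its level was 5.76, 5.87, 6.29, 5.71 and 6.02 log2 CPM in WT-empty and 7.98 to 8.47 (median 8.25) in WT-DHT mice, and 5.95, 5.31, 5.31, 5.57 and 5.43 in KO-empty and 6.39 to 6.84 (median 6.70) in KO-DHT mice. The KO-DHT mice lay above both empty groups and below all WT-DHT mice. The rise was 2.32 in WT (q = 1.43e-12) and 1.11 in KO (q = 1.22e-06), an interaction of −1.21 (SE 0.17, q = 9.88e-05).

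*Smox* (ENSMUSG00000027333), which oxidises spermine back to spermidine, stood at 6.56, 6.56, 6.50, 6.68 and 6.26 log2 CPM in WT-empty and 9.23 to 9.98 (median 9.57) in WT-DHT mice. It stood at 5.40, 6.07, 5.48, 5.59 and 5.87 in KO-empty and 6.88 to 7.84 (median 7.26) in KO-DHT mice. The 4 groups did not overlap, and KO lay below WT with either tubing. The rise was 3.06 in WT (q = 6.84e-13) and 1.62 in KO (q = 1.15e-07), an interaction of −1.45 (SE 0.21, q = 0.000121). *Amd1*, the S-adenosylmethionine decarboxylase, rose by 3.45 and 2.80, an interaction of −0.65 (SE 0.14, q = 0.00608). *Amd2* (−0.59, q = 0.0376) is a near-identical copy of *Amd1*, so that the counting could have split reads between them and their separate values are uncertain. The value was −0.38 for spermine synthase, *Sms* (q = 0.0105). *Odc1*, *Smox* and *Amd1* stayed called without KO-empty mice 17KR and 61KR, and *Amd2* (q = 0.0562) and *Sms* (q = 0.0832) did not, and the median of the list was −0.31 without these mice. With library-size scaling 4 polyamine genes were called, and *Sms* was not (q = 0.0565). The call of *Amd2* also ended with limma-voom (q = 0.0860) and in 12 of the 22 fits that each left out 1 library.

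Calcium signalling gave both directions. Of 25 genes of calcineurin signalling and calcium release, *Casr* had a positive and *Cacna2d4*, *Itpr1* and *Rcan2* a negative interaction, against 3.24% of all genes called in either direction. The median was 0.06, and its sign turned without KO-empty mice 17KR and 61KR (−0.08), WT-empty mouse 49KR (−0.02) or KO-DHT mouse 16KR (−0.01). *Itpr1* (ENSMUSG00000030102) encodes a channel that releases calcium from stores when inositol trisphosphate binds. It stood at 6.25, 6.27, 6.04, 6.38 and 6.27 log2 CPM in WT-empty and 7.07 to 7.34 (median 7.16) in WT-DHT mice, and at 5.69, 5.67, 5.67, 5.77 and 5.57 in KO-empty and 5.71 to 5.87 (median 5.83) in KO-DHT mice. The WT-DHT mice lay above the WT-empty mice, and all KO mice lay below both, with the KO groups overlapping. *Itpr1* rose by 0.96 in WT (q = 4.52e-11), its change in KO was 0.14 (q = 0.166), and its interaction was −0.82 (SE 0.09, q = 2.95e-06). *Rcan2*, a regulator of calcineurin, rose by 1.41 and 0.83, with −0.57 (SE 0.12, q = 0.00640).

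The study names 8 genes as mediators that depend on androgen and on α-actinin-3. It chose them for an interaction both in these samples and in those of the orchidectomy experiment described below, so their count is no independent evidence, and all 8 were called here, 4 positive and 4 negative. The positive ones were *Mybph*, *2310016D23Rik* (1.61), *Pitpna* (0.80), which transfers phosphatidylinositol between membranes, and *Ampd1* (0.50), the AMP deaminase of muscle. The negative ones were *Itpr1*, *Spns2* (−1.05), a transporter of sphingosine 1-phosphate, *Syne1* (−0.69), which links the nucleus to the cytoskeleton, and *Ttll7*. *Ttll7* (ENSMUSG00000036745), an enzyme that adds glutamates to the tails of tubulin, stood at 8.01, 7.98, 8.01, 7.72 and 7.94 log2 CPM in WT-empty and 8.65 to 9.34 (median 8.98) in WT-DHT mice. It stood at 7.61, 7.60, 7.31, 7.40 and 7.39 in KO-empty and 7.73 to 8.13 (median 7.85) in KO-DHT mice. DHT mice lay above empty mice in each genotype, and the KO-DHT mice overlapped the WT-empty mice. The rise was 1.07 in WT (q = 2.13e-08) and 0.42 in KO (q = 0.00731), an interaction of −0.64 (SE 0.14, q = 0.00870). Without KO-empty mice 17KR and 61KR the interaction stayed called (q = 0.0354) and the KO response did not (q = 0.0279). The call of *Ampd1* ended without mice 17KR and 61KR (q = 0.109).

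Amino acid genes moved in both directions. Of 40 genes of amino acid transport and metabolism, 6 had a positive and 3 a negative call, against 1.34% and 1.90% over all genes. The median was 0.14, and it was 0.07 without KO-DHT mouse 6KR and to 0.08 without KO-empty mouse 33KR or KO-DHT mouse 40KR or 63KR. The positive ones were *Glul*, *Cth*, *Gpt2*, *Bckdhb*, *Bcat2* and *Bckdha*, and the last 3 encode enzymes that start the breakdown of branched-chain amino acids. *Glul* (ENSMUSG00000026473), glutamine synthetase, stood at 9.75, 9.66, 9.27, 8.80 and 8.90 log2 CPM in WT-empty and 7.40 to 8.20 (median 7.65) in WT-DHT mice, and at 8.63, 8.46, 8.13, 8.68 and 8.87 in KO-empty and 7.89 to 8.58 (median 8.28) in KO-DHT mice. The WT groups were apart and the KO groups overlapped. *Glul* fell by 1.55 in WT (q = 4.07e-07), its change in KO was −0.27 (q = 0.363), and the interaction was 1.28 (SE 0.25, q = 0.00303). The values were 1.49 for *Cth*, which makes cysteine from cystathionine, 0.91 for the alanine aminotransferase *Gpt2*, 0.86 for *Bckdhb*, 0.73 for *Bcat2* and 0.49 for *Bckdha*. Opposite-strand exons cover 61.7% of those of *Bckdha* and 15.9% of those of *Bcat2*, and the call of *Bckdha* ended without mice 17KR and 61KR (q = 0.0744). The negative ones were *Mthfd2* (−1.76), an enzyme of mitochondrial folate metabolism, *Slc7a5* (−1.55), a transporter of large neutral amino acids, and *Mtr* (−0.75), methionine synthase.

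Genes of mitochondrial energy metabolism leaned to positive values of small size. Of 78 nuclear genes for complexes I to V of the respiratory chain, 63 had an interaction above 0, with a median of 0.13 and median changes of 0.08 in WT and 0.20 in KO. Over all genes, 8233 of 16987 lay above 0. Genes of 1 such list tend to move together, so these are not 78 independent measurements. The median deviation of these genes from their group mean had an SD of 0.09 between mice. Called were *Sdhb* (0.41) and *Cox6a2* (0.38), which encode subunits of complexes II and IV, and, with a negative sign, *Ndufs4* (−0.40) of complex I. These 3 of 78 compare with 3.24% over all genes, and with library-size scaling 7 were called positive and 1 negative, while DESeq2 called 7 and limma-voom 3. Of 77 genes of the mitochondrial ribosome, 62 lay above 0 (median 0.11), and *Mrpl38* was called (0.40). These genes are not independent measurements either, and the same SD between mice was 0.07 for them. Medians were 0.13 for 25 genes of the tricarboxylic acid cycle and pyruvate entry, with *Idh3b* (0.33) and *Suclg2* (0.32) called, and 0.10 for 25 genes of fatty acid uptake and oxidation, with *Echs1* called (0.61). Library-size scaling gave 4 positive calls for the tricarboxylic acid cycle list, 2 for the mitochondrial ribosome and 1 for the fatty acid list. Without mice 17KR and 61KR, *Ndufs4* and *Echs1* stayed called and *Sdhb*, *Cox6a2*, *Mrpl38*, *Idh3b* and *Suclg2* did not. The medians were then 0.07 for complexes I to V, 0.06 for the mitochondrial ribosome, 0.04 for the tricarboxylic acid cycle and 0.06 for the fatty acid list. With thinning to the smallest library *Cox6a2* (q = 0.0549) and *Mrpl38* (q = 0.0563) were not called. The mitochondrial ribosome median was 0.06 without WT-empty mouse 4KR, and the tricarboxylic acid cycle median 0.08 without KO-empty mouse 17KR. The fatty acid median lay between 0.07 and 0.16 without 1 library. When 1 library at a time was left out, the calls of *Cox6a2*, *Mrpl38* and *Suclg2* ended in 19, 17 and 14 of 22 fits, and that of *Idh3b* ended without any of WT-empty mice 14KR and 4KR, WT-DHT mouse 34KR and KO-empty mice 17KR and 61KR. Of 13 genes of mitochondrial DNA, 7 were tested, 0 were called by edgeR, DESeq2 or limma-voom, 0 had an unadjusted p under 0.05, and their median was −0.06 (0.02 without WT-empty mouse 7KR).

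**Figure D4:**
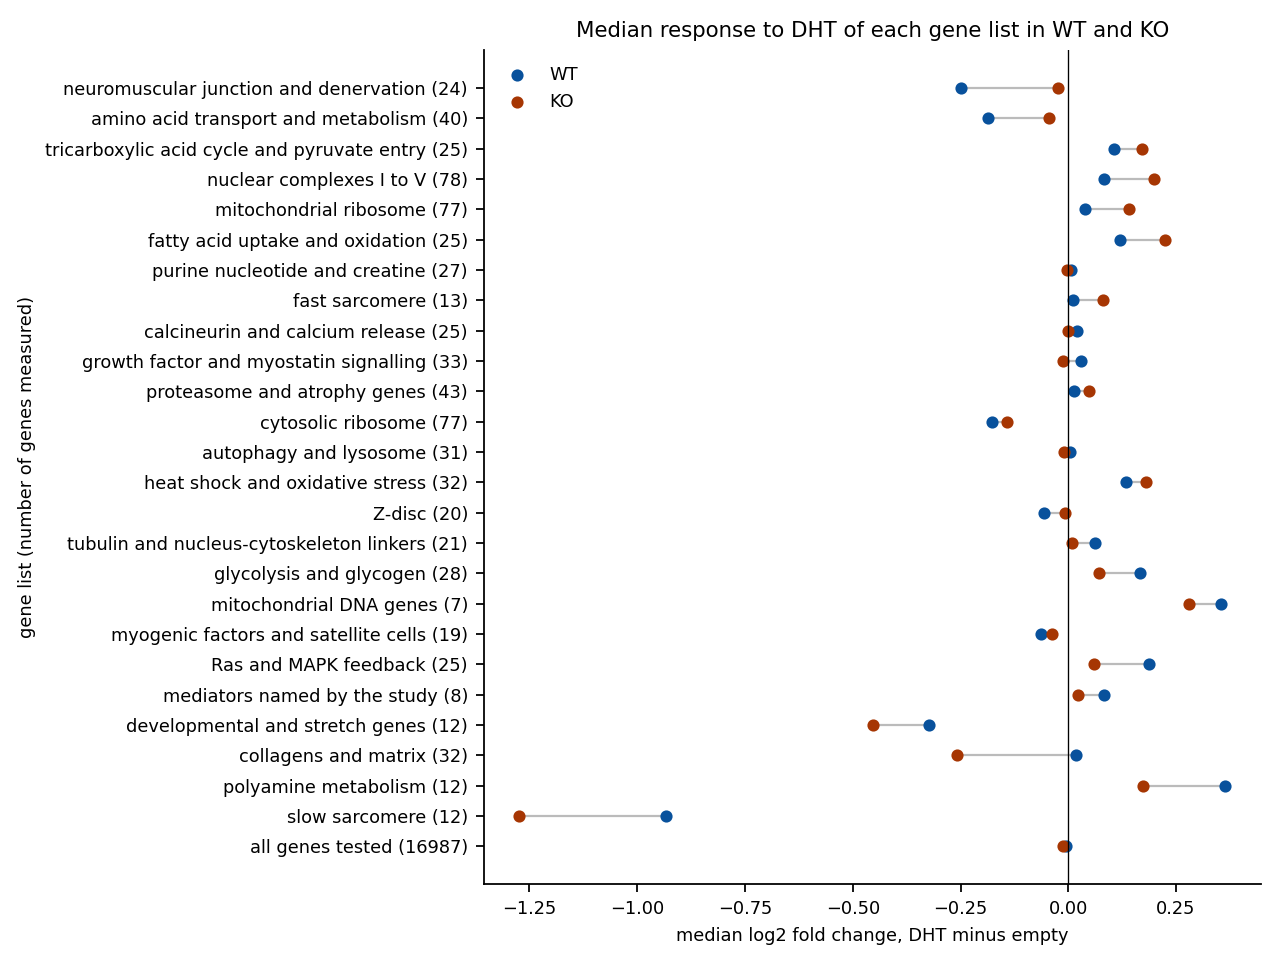
For each gene list, with the number of genes measured, the blue point is the median log2 fold change of WT-DHT over WT-empty and the brown point that of KO-DHT over KO-empty. For the 78 genes of complexes I to V the KO median (0.20) lies above the WT median (0.08), and for the 12 polyamine genes it lies below (0.17 against 0.36).

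At the neuromuscular junction, 24 genes were measured, with 3 positive calls, 1 negative call (over all genes 1.34% and 1.90%) and a median of 0.27. Beside *Ache*, the positive ones were *Fgfbp1* and *Chrnb1*. *Fgfbp1*, which carries fibroblast growth factors, fell by 4.26 in WT and 2.03 in KO, an interaction of 2.23 (SE 0.33, q = 0.000174). *Chrnb1*, a subunit of the acetylcholine receptor, had 0.41 (q = 0.0420), a call that ended with library-size scaling (q = 0.0934), without mice 17KR and 61KR (q = 0.0832) and in 17 of the 22 fits without 1 library. *Musk* (ENSMUSG00000057280), the receptor kinase that gathers acetylcholine receptors under the nerve ending, went the other way. It stood at 4.36, 4.69, 4.50, 3.73 and 4.37 log2 CPM in WT-empty and 6.17 to 6.57 (median 6.40) in WT-DHT mice, and at 3.82, 3.77, 3.64, 3.66 and 3.25 in KO-empty and 4.57 to 4.86 (median 4.66) in KO-DHT mice. DHT mice lay above empty mice in each genotype, and KO-DHT mice lay around the upper end of the range of the WT-empty mice, the highest of them above it. *Musk* rose by 2.04 in WT (q = 1.26e-11) and 1.07 in KO (q = 2.75e-06), an interaction of −0.97 (SE 0.17, q = 0.00130).

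Growth factor genes had 2 negative calls among 33 (1.90% over all genes), *Mstn* and *H19*, and a median of 0.05, which turned negative without KO-empty mouse 33KR (−0.03), KO-empty mouse 64KR (−0.02), WT-empty mouse 35KR (−0.01) or WT-DHT mouse 34KR (−0.01). *Mstn* (ENSMUSG00000026100) encodes myostatin, a secreted factor that limits muscle growth. It stood at 7.28, 6.97, 7.08, 6.70 and 6.74 log2 CPM in WT-empty and 7.88 to 8.29 (median 8.00) in WT-DHT mice, and at 6.28, 6.13, 5.82, 5.67 and 5.90 in KO-empty and 5.75 to 6.55 (median 6.35) in KO-DHT mice. All KO mice lay below all WT mice, the WT groups were apart and the KO groups overlapped. *Mstn* rose by 1.10 in WT (q = 2.25e-06), its change in KO was 0.29 (q = 0.182), and its interaction was −0.80 (SE 0.19, q = 0.0177). Of 19 myogenic and satellite cell genes, *Mef2c*, a transcription factor of muscle, was the 1 gene called (−0.44), against 3.24% over all genes, and the median was −0.07 (0.01 without KO-empty mouse 64KR).

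Genes of the contractile apparatus were measured in several lists, and over all genes 3.24% were called. By edgeR, 0 of 13 fast sarcomere genes (median 0.07, and 0.01 to 0.11 without 1 library) and 0 of 12 slow sarcomere genes (−0.46, and −0.77 to −0.25 without 1 library) were called. Of 20 Z-disc genes 0 were called (−0.04, and −0.06 to 0.01 without 1 library), and library-size scaling turned the Z-disc median to 0.00. An unadjusted p under 0.05 was found for 2 fast sarcomere, 0 slow sarcomere and 4 Z-disc genes. DESeq2, limma-voom and library-size scaling each called 1 fast sarcomere gene and 0 in the slow sarcomere and Z-disc lists, and 1 Z-disc gene was called without KO-empty mouse 61KR. Slow sarcomere genes had median changes of −0.93 in WT and −1.27 in KO, so that both genotypes leaned the same way. Only 1 of the 12 was called lower with DHT in WT and 2 in KO. The median deviation of these genes from their group mean had an SD of 0.66 between mice. Of 12 developmental and stretch genes, *Mybph* and *Actc1* were called (median −0.23, and −0.31 to −0.11 without 1 library). *Actc1*, the cardiac actin that is also made in developing skeletal muscle, fell by 2.91 in WT, with a change of −0.51 in KO and an interaction of 2.41 (SE 0.36, q = 0.000145). Of 21 genes for tubulins, their tail enzymes and linkers of nucleus and cytoskeleton, *Ttll4* (0.70) and *Tuba8* (0.54) were positive and *Ttll7* and *Syne1* negative. Their median was −0.04, and it turned to 0.00 with library-size scaling.

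Matrix genes lay below 0 almost throughout without a call. Of 32 collagens and other matrix genes, 31 had a negative interaction and 0 were called by edgeR, DESeq2 or limma-voom, while 9 had an unadjusted p under 0.05, with a median of −0.28 and median changes of 0.02 in WT and −0.26 in KO. The median was −0.30 without mice 17KR and 61KR, and without 1 library it lay between −0.41 (KO-empty mouse 61KR) and −0.18 (KO-empty mouse 17KR). KO-empty mouse 17KR was the highest of all 22 mice for fibroblast markers (1684 CPM), followed by WT-DHT mouse 5KR (1671 CPM). In mouse 17KR the largest part of that sum was *Col1a1*, itself a collagen gene, with 43163 counts against 18549 for *Dcn*. In mouse 5KR these markers had 20397 and 49018 counts. The sum of mouse 17KR is therefore not separate from the matrix genes. Of the 5 tenocyte markers, 4 also had an interaction below 0. Members of 1 tissue compartment tend to move together, so these genes are not 32 independent measurements.

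In the other lists edgeR called 1 or 2 genes, and over all genes 3.24%. *Rasd2*, a small GTP-binding protein, was called among 25 Ras and MAPK genes (2.14, list median −0.07), and *Ampd1* among 27 genes of purine nucleotides and creatine (median 0.08). Of 28 genes of glycolysis and glycogen, *Slc2a3* and the muscle fructose bisphosphatase *Fbp2* (−0.87) were negative (median −0.06). Of 32 heat shock and oxidative stress genes, *Gstm2* and *Gstm1* (0.60) were positive (median 0.01), and of 31 autophagy and lysosome genes, *Ctsl* (0.46), which encodes a lysosomal protease, and *Map1lc3b* (0.38) of the autophagosome (median 0.01). *Psmd8* (−0.51) was called among 43 proteasome and atrophy genes (median 0.04) and *Rps23* (−0.79) among 77 genes of the cytosolic ribosome (median 0.02). The calls of *Gstm1*, *Map1lc3b*, *Psmd8* and *Tuba8* ended without mice 17KR and 61KR, and those of *Gstm1*, *Map1lc3b* and *Rps23* with library-size scaling. By limma-voom *Gstm1* and *Fbp2* were not called, nor was *Fbp2* with the robust fit (q = 0.0630). DESeq2 called 5 heat shock and oxidative stress genes, 3 genes of glycolysis and glycogen, and as many as edgeR in the other lists named here. When 1 library at a time was left out, the medians of the Ras and MAPK, heat shock and oxidative stress, autophagy and lysosome and cytosolic ribosome lists each turned sign at least once, and the calls of *Gstm1*, *Rps23* and *Fbp2* each ended in 14 of 22 fits and that of *Map1lc3b* in 7 (without WT-empty mouse 14KR, WT-DHT mouse 8KR, KO-empty mouse 17KR, 61KR or 64KR, or KO-DHT mouse 40KR or 65KR). That of *Psmd8* ended without any of WT-empty mice 35KR and 49KR and KO-empty mice 17KR and 61KR.

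The orchidectomy (ORX) experiment of the series measured most of the same genes in other mice, with androgen removed instead of added. It used gastrocnemius from C57BL6 males operated on at 8 to 10 weeks of age and studied 12 weeks later, with 5 KO-ORX libraries and 6 in each of the WT-ORX, WT-sham and KO-sham groups, and it shares no mouse with the spinalis libraries. Muscle, sex and age differ along with the treatment and cannot be told apart. Its interaction, (KO-ORX − KO-sham) − (WT-ORX − WT-sham), was called for 4 of 17514 genes by edgeR (0.0228%), and 1683 (9.61%) had an unadjusted p under 0.05. DESeq2 called 127 and limma-voom 10. The count rested on single libraries, with 38 without KO-ORX replicate 3, 24 without WT-ORX replicate 2, 10 without KO-sham replicate 5, 9 without KO-sham or WT-sham replicate 2, 8 without WT-sham replicate 1 or 6, 7 without replicate 4 of either sham group, and 2 without KO-sham replicate 6 or WT-ORX replicate 4. The called genes were *Ttll7* (0.53), *Spns2* (0.76), *Efcab6* (−0.44) and *Snora78* (1.36), and the first 2 were called with the opposite sign for DHT (−0.64 and −1.05). *Efcab6* and *Snora78* lie outside the rule for named genes and were chosen after their values were seen.

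Of the 550 DHT interaction genes, 536 were measured with ORX, and 195 of them (36.4%) had an unadjusted p under 0.05 there, against 9.83% of the 16642 genes in both tables. The signs tended to be opposite. Of the 227 genes positive for DHT, 22 (9.69%) were above 0 with ORX, with a median of −0.23. Of the 309 genes negative for DHT, 247 (79.9%) were above 0, with a median of 0.17. Of all genes measured in both experiments, 50.6% were above 0. *Mybph* had an ORX interaction of −1.82 (q = 0.0601 by edgeR), *Gstm2* −0.78 (q = 0.0601), *Odc1* 0.73 (q = 0.0595) and *Itpr1* 0.43 (q = 0.0595), all short of the threshold and of the sign opposite to that for DHT. Of these and the 4 called genes, *Mybph*, *Itpr1*, *Ttll7* and *Spns2* are among the 8 mediators, which the study chose in part for their interaction with ORX in these libraries. *Saraf* (0.03) and *Cacna2d4* (−0.03) lay near 0 with ORX. Of the strong DHT genes measured with ORX, 10 of 11 positive ones were below 0 and 22 of 26 negative ones above 0.

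Of the 25 gene lists, whose members partly overlap, 17 had medians of opposite sign in the experiments and 8 of the same sign, many of them close to 0. Among those of the same sign were the genes of mitochondrial DNA, all 7 of which were below 0 with ORX (median −0.16), and those of glycolysis and glycogen (−0.06). With ORX, 73 of the 78 genes of complexes I to V were below 0 (median −0.15) and 67 of the 77 genes of the mitochondrial ribosome (median −0.12). Of the 32 matrix genes, 30 were above 0 (median 0.35), and of the 12 polyamine genes, 8 (median 0.12). The ORX value of *Amd1* (−0.13) had the same sign as for DHT.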

How the data were processed

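RNA from single muscles was sequenced as stranded total RNA libraries. The authors aligned the reads to GRCm39 with STAR 2.7.1b, marked duplicates with Picard 2.20.2 and counted reads per gene with featureCounts (Subread 2.0.0), and SAMtools 1.9 is named in the submitters' processing notes. The deposited values are raw counts per gene in 2 tables, after genes with low counts had been removed by the authors. Whether the counting used strand is not given in the sources used here.

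Columns were assigned to groups by the group in their names, since the mouse numbers in the headers of the DHT table match no label, so a column is known by its group only. One column stands for 1 mouse. The 6th KO-ORX sample has no column and was not analysed here, and 0 columns were unmapped. Gene identifiers were matched to symbols with the GENCODE M21 annotation, which gave a symbol for 16920 of 16987 genes, and exon overlaps were computed in the older build GRCm38, so they are approximate.

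All 22 libraries were fitted together with TMM scaling and edgeR 4.0.16 (R 4.3.3), with 1 mean per group and no covariate. Contrasts were tested with the quasi-likelihood test and Benjamini-Hochberg adjustment. Requiring 0.5 CPM in 2 or more libraries removed 0 genes. Levels are log2 CPM with a prior count of 2. The steps were tested on simulated counts. Alternatives were library-size scaling, RLE factors, DESeq2 1.42.0, limma-voom (limma 3.58.1), a robust fit, at least 10 counts in every library, no filter, thinning to the smallest library, q ≤ 0.01, and leaving out each library. Figures were drawn with matplotlib 3.10.9 in Python 3.11.15.

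Named were *Actn3*, the 8 interaction genes with the smallest p in each direction, the 4 with the smallest p of those with a larger change in KO and of those with called opposite changes, the 8 mediators named by the study, the called members of each list described, and all strong genes. The members and lists were chosen with earlier results of these data known. Of the plan, 1 gene, 1 marker and 1 gene list are not reported here.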

Additional observations from a re-analysis of the deposited data

Results flagged for a closer look

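In 8 of 132 groups of values, 1 mouse lay far from the others of its group, and chance flags about 1 in 20 groups. *Cacna2d4* was 1.43 log2 CPM in KO-DHT mouse 65KR, against 1.74 in the next, and *Ttll7* was 7.72 in WT-empty mouse 35KR, against 7.94. Brown adipocyte markers summed to 594 CPM in KO-DHT mouse 63KR, against 380 in the next of that group. Fibroblast markers summed to 1671 CPM in WT-DHT mouse 5KR, against 1198. Lymphocyte markers summed to 17.5 CPM in WT-empty mouse 7KR, against 12.3, and to 47.1 CPM in KO-empty mouse 61KR, against 19.8. Neutrophil markers summed to 1.19 CPM in WT-empty mouse 14KR, against 0.477. In megacounts (M), the total of WT-DHT mouse 39KR was 34.8 M counts, against 50.5 M counts in the next.

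By the interaction term itself, the response of the genotypes differed for 550 genes with DHT and for 4 genes with ORX by edgeR. The part of these mice in those counts was not tested beyond the values without each of them.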

How the results depend on the processing

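Of the 101 named genes with a called interaction, none changed sign under any alternative in which it was fitted (75 of them with at least 10 counts in every library, all 101 otherwise), and RLE factors and DESeq2 kept all 101 calls. Most of these genes were named because they were called in these libraries. The alternatives refit the same libraries, so a change of sign was unlikely in advance. The fit without a filter is the main fit itself, since the filter removed 0 genes. Library-size scaling ended 6, limma-voom 12, the robust fit 1 (*Fbp2*) and thinning 2 (*Cox6a2* and *Mrpl38*). Leaving out 1 library ended 154 of 2222 calls, in 13 genes. Leaving out KO-empty mice 17KR and 61KR together, chosen after seeing the data, ended 25. Of the 72 named genes not called, only *Actn3* became called, with library-size scaling, DESeq2 and without KO-empty mouse 33KR. The cause was not tested except where fewer mice or genes, or a stricter threshold, make it plain.

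DESeq2 called 767 interaction genes, with 14 larger in KO and 377 of opposite sign, 1201 KO responses and 127 ORX interaction genes. With limma-voom the median interaction was −0.33 for brown adipocyte and −4.95 for neutrophil markers, and 10 ORX genes were called. With at least 10 counts in every library 18 genes were strong. With thinning 11 genes were larger in KO and the median of the tubulin and linker list was 0.023. At q ≤ 0.01 there were 273 interaction genes, 113 positive and 160 negative, with 169 smaller in KO, 4 larger and 100 opposite.

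Without mice 17KR and 61KR, 329 interaction genes were called, 119 positive and 210 negative, 27 of them strong, with 4 larger in KO, 123 opposite and 368 KO responses. Median interactions were then −0.31 for polyamine, −0.078 for calcineurin and calcium, 0.042 for tricarboxylic acid cycle, −0.23 for lymphocyte, −3.37 for neutrophil and −0.29 for red blood cell genes.

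Without 1 library at a time, interaction genes numbered 430 to 658, strong genes 31 to 46 and genes larger in KO 5 to 17. Median interactions ranged from −0.15 to 0.0098 for myogenic, −0.025 to 0.066 for growth factor, −0.019 to 0.092 for calcineurin and calcium, −0.10 to 0.0054 for tubulin and linker, 0.072 to 0.17 for amino acid and −0.00064 to 0.084 for autophagy genes. They ranged from 0.029 to 0.11 for purine and creatine, 0.0055 to 0.049 for proteasome and atrophy, and −0.10 to −0.033 for glycolysis and glycogen genes. For markers they ranged from −0.092 to 0.17 for smooth muscle and pericyte, −1.08 to −0.37 for lymphocyte, −1.18 to 1.71 for brown adipocyte, 0.18 to 0.66 for white adipocyte, −1.59 to −0.59 for red blood cell and 0.0017 to 0.25 for Schwann cell. The marker medians of fibroblasts (−0.054 to 0.10), endothelial cells (−0.11 to 0.0027) and satellite cells (−0.18 to 0.11) each turned sign. The slow sarcomere median ranged from −0.77 without WT-empty mouse 4KR to −0.25 without WT-DHT mouse 5KR, and the matrix median from −0.41 without KO-empty mouse 61KR to −0.18 without KO-empty mouse 17KR. ORX interaction genes numbered 2 to 38, with 38 without KO-ORX mouse 3.

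No paired analysis was possible because the DHT columns carry none of the replicate numbers of the labels. For ORX, the replicate block gave 5 genes against 4. Of 33 same-numbered pairs of ORX samples, 6 had correlated deviations over 0.1, against 20 of 165 pairs with other numbers. Of 23 samples, 7 correlated best with their own number. The share to be found without pairing was not computed, so these values do not decide whether equal numbers mark paired mice.

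Groups of 5 and 6 mice and counts under 20 in many libraries limit the precision for scarce genes such as *Camp* and *Plekhd1*.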

Other observations

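Genes of branched-chain amino acid breakdown were listed after the values of *Ivd* and *Aldh6a1* had been seen, so their count describes these libraries and supports nothing. Of 25 such genes, 14 had a called positive interaction and 0 a negative one by edgeR (1.34% and 1.90% over all genes), and 22 lay above 0, with a median of 0.46. The median change with DHT was −0.35 in WT and −0.09 in KO, and 14 fell in WT against 2 in KO, where 4.64% and 1.75% of all genes were called lower. *Dbt*, a subunit of the branched-chain ketoacid dehydrogenase, fell by 1.40 in WT and 0.53 in KO, with an interaction of 0.87. *Oxct1*, which breaks down ketone bodies, had 0.77 and *Mccc2*, an enzyme of leucine breakdown, had 0.71. With ORX, 24 of the 25 lay below 0, with a median of −0.18.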
